A study of Mus musculus with 20 samples.

Results

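The axon guidance ligands and receptors were 66 protein-coding genes of the 46078 genes in the count tables, chosen by symbol, with earlier results of these data known: the semaphorins of classes 3 to 7, the plexins, the ephrins and their Eph receptors, Slit1 to Slit3 and their Robo receptors, the netrins, and the netrin receptors of the Unc5 and Dcc families. Ligands made up 34 of the members and receptors 32. Among the ligands there were 7 Sema3, 6 Sema4, 2 Sema5, 4 Sema6 and 1 Sema7 genes, 5 ephrin-A and 3 ephrin-B genes, 3 Slit genes and 3 netrin genes. Among the receptors there were 9 plexins, 9 EphA and 5 EphB genes, 4 Robo genes, and 5 genes of the Unc5 and Dcc group. Ntn3 was not analysed here.

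The measurements were bulk polyadenylated RNA sequencing counts from the brains of aged (18 months) wild type C57BL/6J male mice, 7 weeks after a distal middle cerebral artery occlusion combined with hypoxia (DH stroke). From 1 week after stroke the mice received subcutaneous injections of sterile PBS (vehicle) or of 4 g/kg HPBCD (hydroxypropyl-β-cyclodextrin, a ring-shaped sugar that carries cholesterol), 3 times per week for 6 weeks. The stroke peri-infarct region, cut from around the removed infarct, and the matching contralateral region were sequenced with each treatment, which gave 4 groups of 5 libraries. Every mouse had a stroke, so the contralateral hemisphere is the only reference and no group without a stroke was sequenced.

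Axon guidance molecules steer growing axons in development and are still made in the adult brain, where they act on synapses, glia, blood vessels and immune cells. Semaphorins signal mainly through plexins, and most secreted class 3 members also need neuropilins as co-receptors. Ephrins and Eph receptors sit on opposing cell membranes and can signal in both directions, Slits are secreted and repel axons through Robo receptors, and netrins attract axons through Dcc or repel them through Unc5 receptors. Some of these molecules are known to rise around brain injuries, where they limit axon growth.

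Gene counts per library ran from 14445021 to 22171627, with a median of 19008532. Across the 66 members, 3 libraries stood apart from their groups. HPBCD peri-infarct replicate 2 lay outside the range of the other 4 libraries of its group for 42 members, vehicle contralateral replicate 4 for 41 and HPBCD peri-infarct replicate 4 for 37, against 17 to 32 for the remaining 17 libraries. Vehicle contralateral replicate 1 held 3907 CPM (counts scaled to a common library total) summed over 10 striatal marker genes, against 231 to 314 CPM in the other 4 libraries of its group. Same-numbered libraries of both regions within a treatment share an identifier in the deposited table names. They are read here as a pair from 1 mouse, which the labels do not state. The libraries are bulk tissue, so fewer cells of a type and less RNA per cell cannot be told apart.

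In the contralateral region of vehicle mice, on the scale of CPM per kb of annotated exon, the median level was 3.59 for the 34 ligands (lowest 0.129, highest 63.9) and 4.15 for the 32 receptors (lowest 0.0767, highest 33.9). The highest level belonged to Sema7a, the membrane-anchored semaphorin that binds Plxnc1, at 63.9 ± 11.3 CPM per kb (SD, n = 5). It was followed by the transmembrane semaphorin Sema6b at 39.2 ± 1.60 and by Ephb6, an Eph receptor without kinase activity, at 33.9 ± 2.62. The first 2 of these levels did not overlap with their next neighbour over libraries, whereas Ephb6, Efnb3 (28.5 ± 11.7) and Unc5a (25.1 ± 1.42) overlapped in order. Epha4 (20.4 ± 3.13), a receptor for ephrins of both classes, and Efna3 (16.2 ± 0.538), an ephrin of the A class, came next. At the other end stood Dcc (0.146 ± 0.0843 CPM per kb), the attractive netrin receptor, with Efna4 (0.129 ± 0.0819) and Epha1 (0.0767 ± 0.0429). With all libraries and the filter on low counts, Efna4 was too low to be tested in any comparison and Epha1 in all but the comparison of treatments within the peri-infarct region and the interaction.

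**Figure D1:**
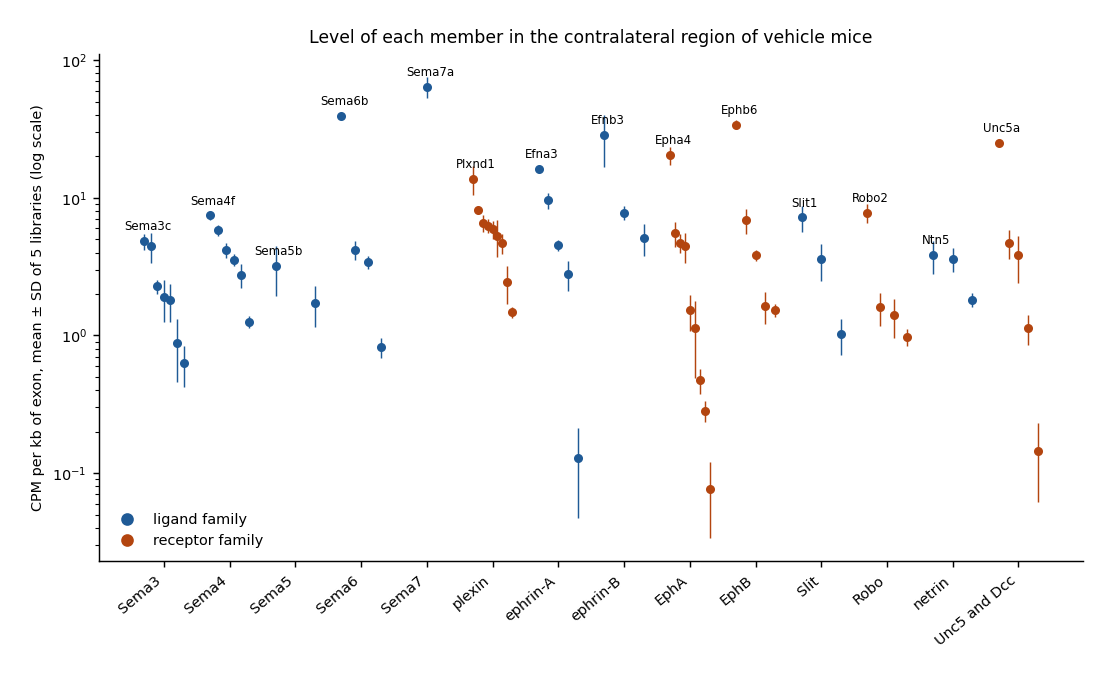
Levels of the 66 members in the contralateral region of vehicle mice, in CPM per kb of exon on a log scale, by family; points are means and bars SD over 5 libraries, and the name of the highest member of each family is printed. Sema7a is highest at 63.9 CPM per kb, and most families hold members that differ by more than their bars.

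The first comparison asked how the peri-infarct region differed from the contralateral region 7 weeks after stroke, separately in vehicle and in HPBCD mice. In vehicle mice 16 of 64 tested members (25%) passed the test, 10 with a rise around the infarct and 6 with a fall. The same test called 20.2% of all genes, 10.5% higher and 9.70% lower, so the share of members was close to that of all genes. Ligands and receptors gave like counts, 8 of 33 ligands (5 higher, 3 lower) and 8 of 31 receptors (5 higher, 3 lower). In HPBCD mice 36 of 64 members (56.2%) were called, 22 higher and 14 lower, against 54.6% of all genes (30.3% higher, 24.3% lower). Here 19 of 33 ligands (12 higher, 7 lower) and 17 of 31 receptors (10 higher, 7 lower) were called. The median log2 fold change of the members was 0.09 in vehicle mice and 0.06 in HPBCD mice, beside 0.01 and 0.03 for all genes tested.

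The test was edgeR's quasi-likelihood F test with Benjamini-Hochberg adjustment over all genes tested, and errors on log2 fold changes are standard errors. The 2 region comparisons share no library. Of the 64 members tested in both, 54 (84.4%) had the same sign and 50 (78.1%) had the larger change in HPBCD mice, beside 80.2% and 78.9% of all 15570 genes tested in both. Called in both were 13 members, 9 higher (Sema3b, Sema3d, Sema4d, Sema4g, Sema6d, Plxnb1, Plxnb2, Plxnc1 and Robo1) and 4 lower (Sema7a, Ntn5, Ephb3 and Robo3), with 0 in opposite directions. A further 23 were called in HPBCD mice and 3 (Plxna3, Robo4 and Sema6c) in vehicle mice, which is no test of a difference between treatments. The shares were 20.3% in both, 35.9% and 4.69%, beside 18.7%, 35.6% and 1.75% of all genes tested in both. That test is given with the interaction. The vehicle count depended on single libraries, with 10 members called without vehicle peri-infarct replicate 4 and 22 without vehicle contralateral replicate 4. Without the latter, Slit1 (0.69), Slit3 (0.64), Efnb1 (0.55), Unc5c (0.60), Dcc (1.42) and Epha6 (1.59) were called higher and Epha10 (-0.48) lower on the log2 scale, and Sema3b lost its call (adjusted p = 0.068, edgeR). Without vehicle contralateral replicate 1, Efnb3 (0.75) and Epha10 (-0.49) gained a call, and Robo4 (adjusted p = 0.052) and Sema3b (adjusted p = 0.0801) lost theirs. In HPBCD mice the split between rises and falls moved more than the count, to 21 higher and 22 lower without HPBCD peri-infarct replicate 2 and to 19 and 21 with limma voom. Without HPBCD peri-infarct replicate 4, Epha3 (0.57) and Slit3 (0.71), of the members tested with all libraries, were called higher and Sema3c (-0.48) lower, and Efna1 lost its call (adjusted p = 0.0818).

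**Figure D2:**
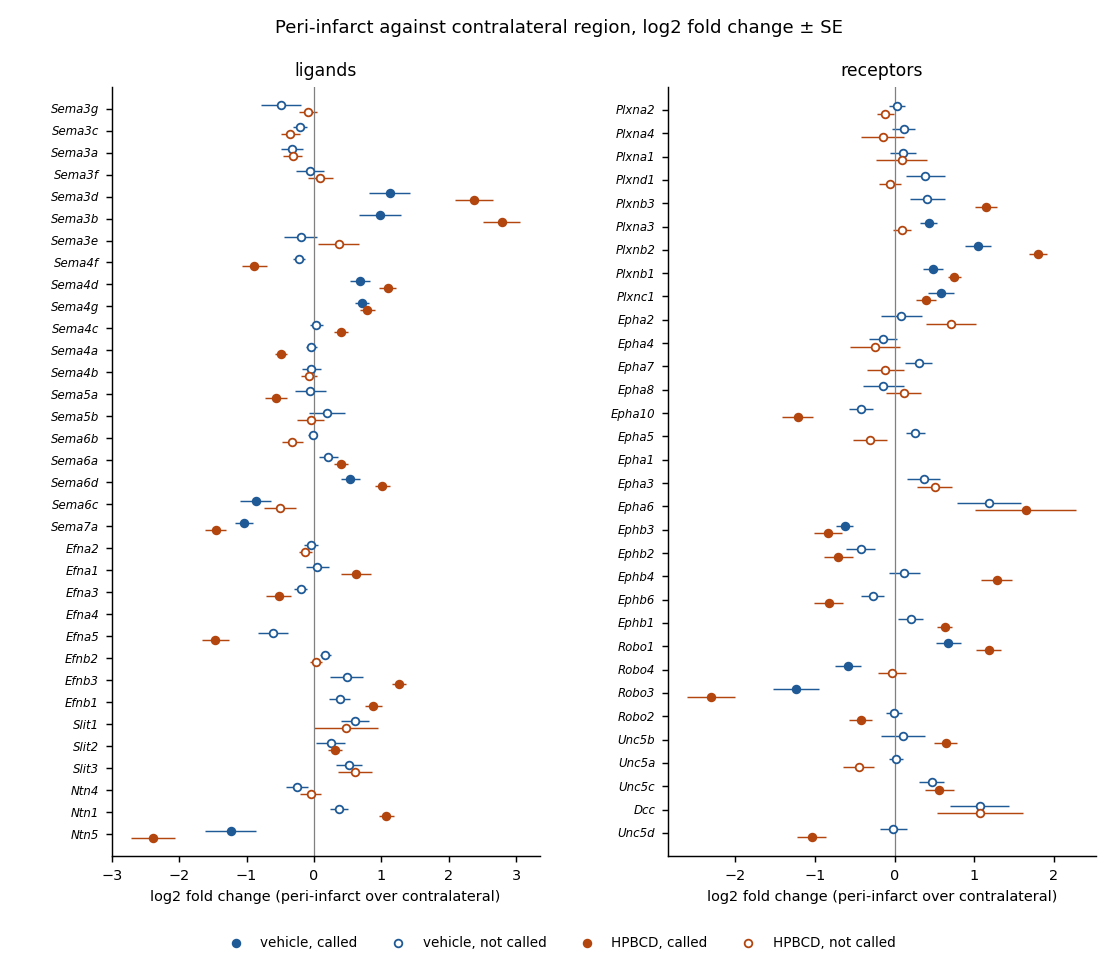
Log2 fold change of each member between the peri-infarct and contralateral regions, in vehicle (blue) and HPBCD (orange) mice, ligands on the left and receptors on the right; bars are standard errors and filled points passed the test. All filled plexins lie above 0 in both treatments, while Sema7a, Ntn5, Robo3 and Ephb3 lie below 0 in both.

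The largest rises among ligands were those of the secreted class 3 semaphorins Sema3b and Sema3d. Sema3b stood at 3.02, 7.79, 2.84, 4.13 and 3.4 CPM in the contralateral and 8.67, 4.41, 10.6, 10.9 and 7.47 CPM in the peri-infarct libraries of vehicle mice (replicates 1 to 5; log2 fold change 0.97 ± 0.31, adjusted p = 0.0456, edgeR). In HPBCD mice it stood at 2.75, 1.36, 5.38, 3.42 and 3.55 CPM contralaterally and 22.5, 18.2, 25, 28.6 and 17.9 CPM around the infarct (log2 fold change 2.79 ± 0.27, adjusted p = 3.94e-06, edgeR). The regions overlapped in vehicle mice through contralateral replicate 2 and did not overlap in HPBCD mice, where the fitted ratio was 6.91-fold. The vehicle call was lost with the pair as a block (adjusted p = 0.0861) and in 8 of the 10 fits that left out 1 library (adjusted p up to 0.108).

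Sema3d rose alongside, from 5.38 ± 1.77 to 11.8 ± 4.87 CPM (SD, n = 5) in vehicle mice (log2 fold change 1.12 ± 0.31, adjusted p = 0.0262, edgeR) and from 5.98 ± 2.76 to 31 ± 9.0 CPM in HPBCD mice (log2 fold change 2.38 ± 0.28, adjusted p = 1.57e-05, edgeR). Its peri-infarct values in HPBCD mice were 24.8, 26.1, 42.1, 39.2 and 22.6 CPM, all above the highest contralateral value of 10.6 CPM. In vehicle mice the call did not hold without peri-infarct replicate 4 (adjusted p = 0.0688) or without contralateral replicate 5 (adjusted p = 0.0609). The other 5 class 3 members (Sema3a, Sema3c, Sema3e, Sema3f and Sema3g) passed the test in neither treatment. With the pair as a block Sema3c was called lower in HPBCD mice (log2 fold change -0.37, adjusted p = 0.0215, edgeR). Sema3a, a strong repellent of cortical axons, had a log2 fold change of -0.33 ± 0.16 in vehicle mice (adjusted p = 0.177) and -0.32 ± 0.14 in HPBCD mice (adjusted p = 0.0779, both edgeR).

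Among the transmembrane semaphorins, Sema4d and Sema4g rose in both treatments. Sema4d, a ligand of Plxnb1 that oligodendrocytes and lymphocytes are known to make, went from 32.1 ± 4.02 to 52 ± 11.2 CPM in vehicle mice and from 28.9 ± 4.92 to 61.6 ± 8.67 CPM in HPBCD mice, higher in 5 of 5 pairs of each treatment (log2 fold change 0.68 ± 0.15, adjusted p = 0.00911, and log2 fold change 1.09 ± 0.13, adjusted p = 1.75e-05, edgeR). Sema4g showed the most even change, 1.63-fold in vehicle and 1.73-fold in HPBCD mice (adjusted p = 0.00244 and 4.41e-05, edgeR), with no overlap between regions in either. Sema6d, a ligand of Plxna1, rose in both as well (log2 fold change 0.54 ± 0.14 and 1.01 ± 0.11, adjusted p = 0.0192 and 9.59e-06, edgeR). In HPBCD mice Sema4c (0.39) and Sema6a (0.40) were higher and Sema4f (-0.88), Sema4a (-0.49) and Sema5a (-0.57) lower on the log2 scale. Sema6b was called lower in HPBCD mice with the block (-0.35, adjusted p = 0.029). Sema6c was called lower in vehicle mice (log2 fold change -0.87 ± 0.23, adjusted p = 0.0216, edgeR), at 1.86 to 4.25 CPM around the infarct, and lost the call without peri-infarct replicate 4 or contralateral replicate 3.

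Sema7a, the most abundant member, went the other way. Its contralateral levels were 241, 232, 198, 151 and 233 CPM in vehicle mice and 215, 250.3, 218, 282 and 261 CPM in HPBCD mice. Around the infarct they were 126, 111, 98.6, 89.6 and 93 CPM and 80.5, 108, 62.7, 83.9 and 108 CPM. No peri-infarct library reached the lowest contralateral one, and Sema7a was lower in 5 of 5 pairs of each treatment (log2 fold change -1.04 ± 0.14, adjusted p = 0.00155, and log2 fold change -1.46 ± 0.15, adjusted p = 7.23e-06, edgeR). Its receptor Plxnc1 was higher instead, at 44.1 ± 13.2 against 66.6 ± 5.28 CPM in vehicle mice and 46.5 ± 6.85 against 61.3 ± 8.38 CPM in HPBCD mice (adjusted p = 0.0266 and 0.0162, edgeR). The regions overlapped for Plxnc1 in both treatments, and its vehicle call was lost in 5 of the 10 fits that left out 1 library.

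With all libraries, every plexin that passed the test was higher around the infarct, 4 of 9 in vehicle mice and 4 of 9 in HPBCD mice, beside 20.2% and 54.6% of all genes. Without HPBCD peri-infarct replicate 2, Plxna1 (-0.43) and Plxna4 (-0.52) were called lower in HPBCD mice. Plxnb2, a receptor for class 4 semaphorins, changed most. It stood at 42.6, 50.6, 52.9, 46.7 and 35.2 CPM contralaterally and 86.4, 67.4, 126, 103 and 91.8 CPM around the infarct in vehicle mice (log2 fold change 1.05 ± 0.16, adjusted p = 0.00244, edgeR). In HPBCD mice the values were 40.5, 41, 49.5, 40.5 and 38.4 CPM and 134, 123, 164, 175 and 136 CPM (log2 fold change 1.80 ± 0.11, adjusted p = 3.69e-07, edgeR). The regions were fully separate in both treatments.

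Plxnb1, which Sema4d binds, rose from 78.5 ± 5.43 to 110.1 ± 23.2 CPM in vehicle mice and from 74.9 ± 5.28 to 126 ± 7.55 CPM in HPBCD mice (adjusted p = 0.0213 and 7.27e-06, edgeR), without overlap between the regions. Some of its exon, 257 bp, lies opposite Gm7628, and the strand setting of the counting is not given in the sources used here. Plxnb3, the plexin known from oligodendrocytes, was called in HPBCD mice (log2 fold change 1.14 ± 0.14, adjusted p = 2.06e-05, edgeR) and had a log2 fold change of 0.41 ± 0.22 in vehicle mice (adjusted p = 0.214). Plxna3, a receptor for class 3 semaphorins, was called in vehicle mice (log2 fold change 0.43 ± 0.11, adjusted p = 0.0158, edgeR) and stood at 0.09 ± 0.11 in HPBCD mice (adjusted p = 0.523). Plxna1, Plxna2, Plxna4 and Plxnd1 passed in neither.

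The promoters of 4 members called in both treatments are shown. They are the ligand and the receptor that rose most and that fell most in HPBCD mice among those for which a RefSeq window was found here. Each window runs 5′ to 3′ on the strand of its gene, from 250 bases before to 50 bases after the RefSeq start, on build GRCm38.p6. Capitals mark matches on either strand to the GC box GGGCGG, the CCAAT box CCAAT, the TATA box TATAAA or the AP-1 motif TGANTCA.
Sema3d, chr5:12382916-12383215, plus strand: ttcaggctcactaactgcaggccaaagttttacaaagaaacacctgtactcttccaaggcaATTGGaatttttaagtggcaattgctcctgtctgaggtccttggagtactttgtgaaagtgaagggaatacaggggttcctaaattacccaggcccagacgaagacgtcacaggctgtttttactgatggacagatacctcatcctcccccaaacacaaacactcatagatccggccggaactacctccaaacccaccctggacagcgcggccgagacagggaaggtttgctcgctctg
Ntn5, chr7:45683772-45684071, plus strand: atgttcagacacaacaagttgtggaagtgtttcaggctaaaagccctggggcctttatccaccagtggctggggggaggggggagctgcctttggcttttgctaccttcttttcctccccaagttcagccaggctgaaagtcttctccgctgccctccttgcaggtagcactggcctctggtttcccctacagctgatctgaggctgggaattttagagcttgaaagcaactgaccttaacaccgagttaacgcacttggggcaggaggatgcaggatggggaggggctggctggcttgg
Plxnb2, chr15:89180739-89181038, minus strand: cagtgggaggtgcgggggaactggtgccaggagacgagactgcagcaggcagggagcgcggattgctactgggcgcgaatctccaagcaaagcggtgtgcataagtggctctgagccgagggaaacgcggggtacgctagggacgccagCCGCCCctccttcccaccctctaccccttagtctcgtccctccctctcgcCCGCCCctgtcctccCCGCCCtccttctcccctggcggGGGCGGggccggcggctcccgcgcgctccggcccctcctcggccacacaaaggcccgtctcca
Robo3, chr9:37433126-37433425, minus strand: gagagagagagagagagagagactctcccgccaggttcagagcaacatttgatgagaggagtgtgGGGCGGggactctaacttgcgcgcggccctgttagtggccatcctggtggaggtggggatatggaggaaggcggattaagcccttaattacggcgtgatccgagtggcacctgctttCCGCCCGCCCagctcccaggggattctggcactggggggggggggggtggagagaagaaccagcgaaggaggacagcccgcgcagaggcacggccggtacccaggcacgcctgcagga

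The Plxnb2 window, the first of 2 in the table for this gene, held 4 GC boxes at 70.3% G and C, and the Robo3 window held 3, of which 2 overlap, at 63.3%. The Sema3d window held 1 CCAAT match at 49.7% G and C, and the Ntn5 window held none of the 4 motifs at 55.3%. RefSeq windows were found for 56 of the 66 members, 72 windows in all. A GC box occurred in 69.4% of member windows and in 35.7% of all 32851 windows, a CCAAT box in 29.2% and 37.4%, a TATA box in 2.78% and 13.6%, and an AP-1 motif in 4.17% and 7.81%. Among members with a window, 12 of 18 that were higher and 9 of 13 that were lower in HPBCD mice had a GC box, 6 and 5 had a CCAAT box, 1 and 0 a TATA box, and 2 and 0 an AP-1 motif. These matches describe the letters in the windows only.

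Ephrins and Eph receptors moved in both directions. In vehicle mice Ephb3 alone was called among the 20 members of these families that were tested, and in HPBCD mice 12 of them were, beside 20.2% and 54.6% of all genes. Ephb3 stood at 21.9, 26.3, 27.7, 24.8 and 27.1 CPM contralaterally and 17.2, 18.4, 12.8, 18.4 and 16.9 CPM around the infarct of vehicle mice (log2 fold change -0.62 ± 0.11, adjusted p = 0.00365, edgeR). In HPBCD mice it stood at 25.4, 24.3, 24.4, 23.8 and 24.9 and 13, 21.2, 11.8, 10.6 and 11.8 CPM (log2 fold change -0.84 ± 0.18, adjusted p = 0.0014, edgeR). The regions did not overlap in either treatment.

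All 5 EphB receptors were called in HPBCD mice, 2 higher and 3 lower, in a comparison that called 54.6% of all genes. Ephb4, known from venous endothelium as the receptor of Efnb2, rose from 7.19, 6.3, 6.55, 7.07 and 6.03 CPM to 11.5, 13.1, 22.2, 21.6 and 12.3 CPM (log2 fold change 1.28 ± 0.19, adjusted p = 1.21e-04, edgeR), whereas in vehicle mice it was 7.62 ± 2.03 and 8.35 ± 1.5 CPM (adjusted p = 0.703). Ephb1 was higher as well (log2 fold change 0.63 ± 0.09). Ephb2 (-0.70 ± 0.18) and Ephb6 (-0.82 ± 0.18) were lower, as was Ephb3. Their ligands of the B class also rose in HPBCD mice where called, Efnb3 from 59.2 ± 7.95 to 142 ± 10.6 CPM (log2 fold change 1.26 ± 0.11, adjusted p = 1.70e-06, edgeR) and Efnb1 from 14.1 ± 2.01 to 26 ± 4.17 CPM (log2 fold change 0.88 ± 0.13, adjusted p = 9.66e-05, edgeR). Efnb2, the partner of Ephb4, had a log2 fold change of 0.03 ± 0.09 (adjusted p = 0.793, edgeR).

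In vehicle mice Efnb3 stood at 147, 50.7, 83.1, 67.5 and 104 CPM contralaterally and 138, 113, 121, 99.3 and 169.8 CPM around the infarct (adjusted p = 0.185, edgeR). Its high contralateral value belonged to replicate 1, the library with the high striatal marker sum. Without that library the log2 fold change was 0.75 (adjusted p = 0.028), and with the pair as a block the adjusted p was 0.0396. Efnb1 was likewise called in vehicle mice with the block (adjusted p = 0.0341) and without contralateral replicate 4 (adjusted p = 0.0057).

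Of the ephrin-A ligands 3 of 4 and of the EphA receptors 2 of 8 were called in HPBCD mice, where 54.6% of all genes were. Efna5, a repellent that patterns cortical and visual maps, was at 40.9, 49.5, 57.1, 45.2 and 43.7 CPM contralaterally and 20.1, 9.28, 16.2, 15 and 25.3 CPM around the infarct of HPBCD mice (log2 fold change -1.47 ± 0.20, adjusted p = 5.54e-05, edgeR). In vehicle mice it was at 38.7 ± 5.23 and 25.6 ± 8.79 CPM, lower in 5 of 5 pairs, with an adjusted p of 0.0686 without and 0.0288 with the block. Efna3 fell (-0.53) and Efna1 rose (0.62 on the log2 scale) in HPBCD mice, and Efna1 lost its call in 5 of the 10 fits that left out 1 library and with no filter on low counts (adjusted p = 0.051). Efna3 lost it without contralateral replicate 1 (adjusted p = 0.0567). With all libraries, the EphA receptor that was called lower was Epha10, which lacks kinase activity, from 37.1 ± 7.03 to 15.9 ± 4.42 CPM (log2 fold change -1.22 ± 0.20, adjusted p = 2.00e-04, edgeR). In vehicle mice its log2 fold change was -0.42 ± 0.15 (adjusted p = 0.0646, and 0.0388 with the block). Exon of Epha10 overlaps 79 bp of 1700125G02Rik on the opposite strand.

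Efna4 and Epha1 were near the floor of the counts. Efna4 stood at 0 to 0.15 CPM (0 to 3 counts) in HPBCD contralateral and 0.331 to 1.02 CPM (6 to 21 counts) in HPBCD peri-infarct libraries, with no overlap. Epha1 stood at 0 to 0.249 and 0.304 to 1.27 CPM. These members could pass the filter only through the group where they were high, so no call is read for them. Epha2 was called higher in HPBCD mice with the pair as a block (adjusted p = 0.0427).

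Epha6 was called higher in HPBCD mice (log2 fold change 1.65 ± 0.63, adjusted p = 0.0421, edgeR). The peri-infarct values were 11.2, 58.3, 7.37, 4.97 and 7.71 CPM. Without replicate 2 the log2 fold change was 0.41 (adjusted p = 0.222), and with the block the adjusted p was 0.103. Limma voom did not call it either. The call was also lost without contralateral replicate 1, 2, 3 or 5 (adjusted p of 0.0646 to 0.0984). In vehicle mice, by contrast, Epha6 was called with the block (adjusted p = 0.043) and not without it (log2 fold change 1.19 ± 0.40, adjusted p = 0.0558).

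That same library was far above its group for several other receptors and ligands. Epha4 stood at 131, 341, 98.8, 89.5 and 126 CPM in HPBCD peri-infarct replicates 1 to 5, Slit1 at 39.6, 146, 30.8, 16.6 and 29.6 CPM and Plxna1 at 55.3, 148, 52.6, 37.7 and 48.6 CPM. Without replicate 2 these members had other results in HPBCD mice. Epha4 went from -0.25 (adjusted p = 0.536) to a called fall of -0.78 (adjusted p = 8.99e-05), and Plxna1 turned from 0.09 to -0.43 (adjusted p = 0.0124). Epha5 (-0.58), Epha7 (-0.43), Plxna4 (-0.52), Unc5a (-0.67), Sema6b (-0.41) and Sema6c (-0.70) were also called lower without it, so that 8 members gained and 1 lost a call. The same library held the highest summed level of excitatory neuron markers in its group, 4990 CPM against 2160 to 3503 CPM over 6 genes, and the lowest of striatal markers, 785 CPM against 1645 to 2294 CPM over 10 genes. The part of these in the members' values was not tested.

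Of the 4 Robo receptors of the Slits, 3 were called in each treatment (75%), 1 higher and 2 lower, beside 20.2% and 54.6% of all genes. The falls were Robo3 and Robo4 in vehicle mice and Robo3 and Robo2 in HPBCD mice. Robo1, the main Slit receptor of growing forebrain axons, rose from 28.5, 22.4, 21.7, 38 and 21.8 to 46.6, 38.9, 40.5, 48.1 and 39.5 CPM in vehicle mice (log2 fold change 0.68 ± 0.15, adjusted p = 0.0112, edgeR) and from 20.5, 27.5, 32.6, 27.8 and 23.8 to 57.5, 74.9, 61.7, 59.7 and 44.8 CPM in HPBCD mice (log2 fold change 1.18 ± 0.15, adjusted p = 3.54e-05, edgeR). Peri-infarct libraries were above contralateral ones in both. Robo3, known from commissural axons, fell instead, from 9.57 ± 2.98 to 4.1 ± 1.56 CPM (log2 fold change -1.23 ± 0.29, adjusted p = 0.0134, edgeR) and from 11.9 ± 5.01 to 2.41 ± 0.849 CPM (log2 fold change -2.30 ± 0.30, adjusted p = 3.27e-05, edgeR), lower in 5 of 5 pairs of each treatment. In HPBCD mice its values were 11.4, 9.12, 7.38, 11.3 and 20.4 CPM and 2.06, 1.22, 2.81, 2.48 and 3.49 CPM, with no overlap.

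Robo4, an endothelial Robo, was called lower in vehicle mice (log2 fold change -0.59 ± 0.16, adjusted p = 0.0264, edgeR), where 7 of the 10 fits without 1 library lost the call, and stood at -0.03 ± 0.18 in HPBCD mice (adjusted p = 0.887). Robo2 was lower in HPBCD mice (log2 fold change -0.42 ± 0.14, adjusted p = 0.0254, edgeR), and lost the call without contralateral replicate 2, 3 or 4 (adjusted p = 0.0515, 0.056 and 0.0616). Of the 3 Slits, Slit2 was called in HPBCD mice at 1.25-fold (adjusted p = 0.0219, edgeR) and lost the call in 7 of 18 alternatives, of which 4 left out 1 library and the others were limma voom (0.0595), no filter on low counts (0.105) and all 4 groups in 1 fit (0.148). Slit3 had log2 fold changes of 0.52 ± 0.19 and 0.61 ± 0.26 (adjusted p = 0.0786 and 0.06, edgeR), and was called in both treatments with the block (0.0396 and 0.0316).

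The netrins differed among themselves. Ntn5 was at 6.21, 10.1, 11, 5.98 and 9.35 CPM contralaterally and 4.74, 6.41, 1.02, 2.54 and 3.45 CPM around the infarct of vehicle mice (log2 fold change -1.24 ± 0.37, adjusted p = 0.0364, edgeR). In HPBCD mice it was at 10.8, 7.87, 8.96, 6.69 and 13.4 and 2.36, 0.456, 1.74, 1.93 and 2.58 CPM (log2 fold change -2.39 ± 0.32, adjusted p = 4.76e-05, edgeR), a level 0.191 times the contralateral one. It was lower in 5 of 5 pairs of each treatment, but the vehicle call was lost in 5 of the 10 fits without 1 library. Its exons share 519 bp with Sec1 on the opposite strand. Ntn1, the secreted attractant, rose in HPBCD mice from 9.28 ± 1.11 to 19.6 ± 2.1 CPM (log2 fold change 1.08 ± 0.11, adjusted p = 6.09e-06, edgeR), against 0.37 ± 0.13 in vehicle mice (adjusted p = 0.0667). Its values were 8.28, 9.48, 11.1, 8.9 and 8.62 CPM contralaterally and 20.5, 16.9, 22.4, 19.5 and 18.4 CPM around the infarct of HPBCD mice, and 11, 13.7, 11.1, 10.7 and 10.4 and 17.6, 14.2, 16.3, 14.3 and 11.5 CPM in vehicle mice, so the regions overlapped in vehicle mice alone. Ntn4, a netrin of basement membranes, did not pass between regions.

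Among the netrin receptors, 3 of 5 were called in HPBCD mice, beside 54.6% of all genes. Unc5b (0.64 ± 0.14, adjusted p = 0.00183) and Unc5c (0.56 ± 0.18, adjusted p = 0.0198) were higher on the log2 scale and Unc5d (-1.04 ± 0.18, adjusted p = 3.74e-04) lower, by edgeR. The Unc5c call was lost with limma voom (adjusted p = 0.0861) and without contralateral replicate 1 or 5 (0.0516 and 0.0509). With the block Unc5a was called lower in HPBCD mice (-0.52, adjusted p = 0.0234). In vehicle mice Unc5c (adjusted p = 0.0415) and Dcc (0.0338) were called with the block and not without it. Dcc was low, at 0.889 to 3.59 CPM in vehicle contralateral and 2.44 to 5.86 CPM in vehicle peri-infarct libraries. Its log2 fold change was 1.07 ± 0.37 in vehicle and 1.08 ± 0.54 in HPBCD mice (adjusted p = 0.0603 and 0.108, edgeR), and the HPBCD value was called with the block as well (0.0427).

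**Figure D3:**
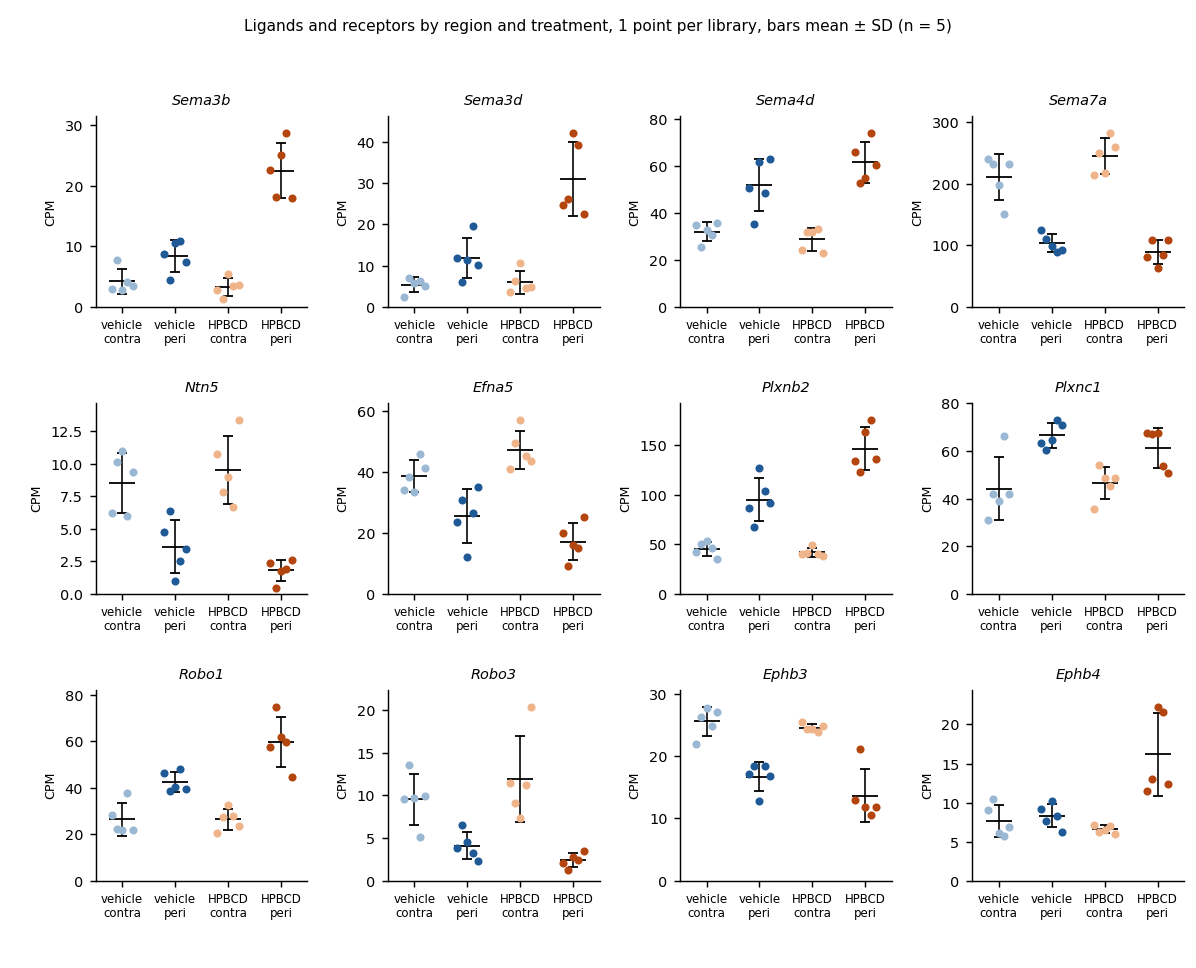
CPM of 12 members in each of the 20 libraries, 1 point per library, with the mean and SD of each group of 5. Sema3b, Sema3d, Sema4d, Plxnb2 and Robo1 have higher peri-infarct means in both treatments, Sema7a, Ntn5, Efna5, Robo3 and Ephb3 lower ones, and Ephb4 is high in the HPBCD peri-infarct libraries (11.5 to 22.2 CPM).

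Set side by side, ligands and receptors known to bind each other did not share 1 direction. Sema4d, Plxnb1 and Plxnb2 were all called higher in both treatments, whereas for the pair of Sema7a and Plxnc1 the ligand was lower and the receptor higher. Ephb4 was called higher in HPBCD mice while Efnb2 was not. Robo1 was higher in both treatments, beside Slit2 called in HPBCD mice.

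The next comparison asked whether the difference between regions depended on treatment. The interaction, fitted over all 20 libraries, called 7 of 65 members (10.8%), against 9.41% of all genes (5.03% higher, 4.38% lower). For 4 of them, Sema3b, Plxnb2, Ephb4 and Ntn1, the peri-infarct against contralateral difference was more positive in HPBCD mice, and for 3, Unc5d, Sema4f and Sema4a, more negative. Ligands gave 4 of 33 and receptors 3 of 32. With the pair as a block the count was 12, with Sema6d, Efnb3, Epha10, Plxnb3 and Robo3 added (adjusted p = 0.022, 0.0496, 0.0231, 0.0355 and 0.0487). The block called 1830 of all 16758 genes, against 1577 without it. Single libraries moved the count too: it was 3 when vehicle peri-infarct library 2 or HPBCD peri-infarct library 3 was left out, 4 without HPBCD contralateral replicate 2, 14 when vehicle peri-infarct library 3 was left out and 17 when it was HPBCD peri-infarct library 2. Sema4f and Sema4a lost the call without vehicle contralateral replicate 1 (adjusted p = 0.0731 and 0.0505), and Plxnb3 gained one without vehicle contralateral replicate 4 (0.0416).

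Sema3b had the largest of these called interactions, a log2 difference of 1.80 ± 0.44 (adjusted p = 0.022, edgeR). Ephb4 followed at 1.16 ± 0.29 (adjusted p = 0.0234), with Plxnb2 at 0.74 ± 0.20 (0.0299) and Ntn1 at 0.70 ± 0.17 (0.0207). Sema3b, Ephb4 and Ntn1 kept the call in all 27 alternative fits. Their adjusted p reached 0.0455, 0.0496 and 0.0467 (edgeR) when 1 library was left out, close to the threshold. Plxnb2 lost it in 9 of them, each without 1 library, with adjusted p up to 0.06.

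Among the called negative interactions, that of Unc5d, a repulsive netrin receptor known from cortical layer 4, was the largest. Its contralateral values were 30.7, 48, 44.3, 57.7 and 36.5 CPM in vehicle and 47.6, 59.5, 52.2, 49.4 and 57.2 CPM in HPBCD mice. Around the infarct they were 38.4, 53.3, 48.3, 43 and 33.5 CPM and 34.9, 24.3, 23.7, 14.6 and 31.6 CPM. The vehicle regions overlapped almost fully (log2 fold change -0.02 ± 0.17), the HPBCD regions not at all, and the interaction was -1.04 ± 0.27 (adjusted p = 0.0261, edgeR). Leaving out library 2 of the vehicle or library 3 of the HPBCD peri-infarct group ended the call (adjusted p = 0.0553 and 0.0537). Sema4f stood at 37.5, 39, 35.3, 41.7 and 43.2 and 36.5, 35.9, 28.3, 33.5 and 35.8 CPM in the contralateral and peri-infarct libraries of vehicle mice and at 46.2, 44.7, 36.7, 43.6 and 40.5 and 28.4, 29.4, 19.7, 13.4 and 23.3 CPM in those of HPBCD mice, where the regions did not overlap. Its interaction, at -0.68 ± 0.21 (0.0454), lost its call in 15 of 27 alternatives, and Sema4a, at -0.46 ± 0.12 (0.0284), in 5.

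**Figure D4:**
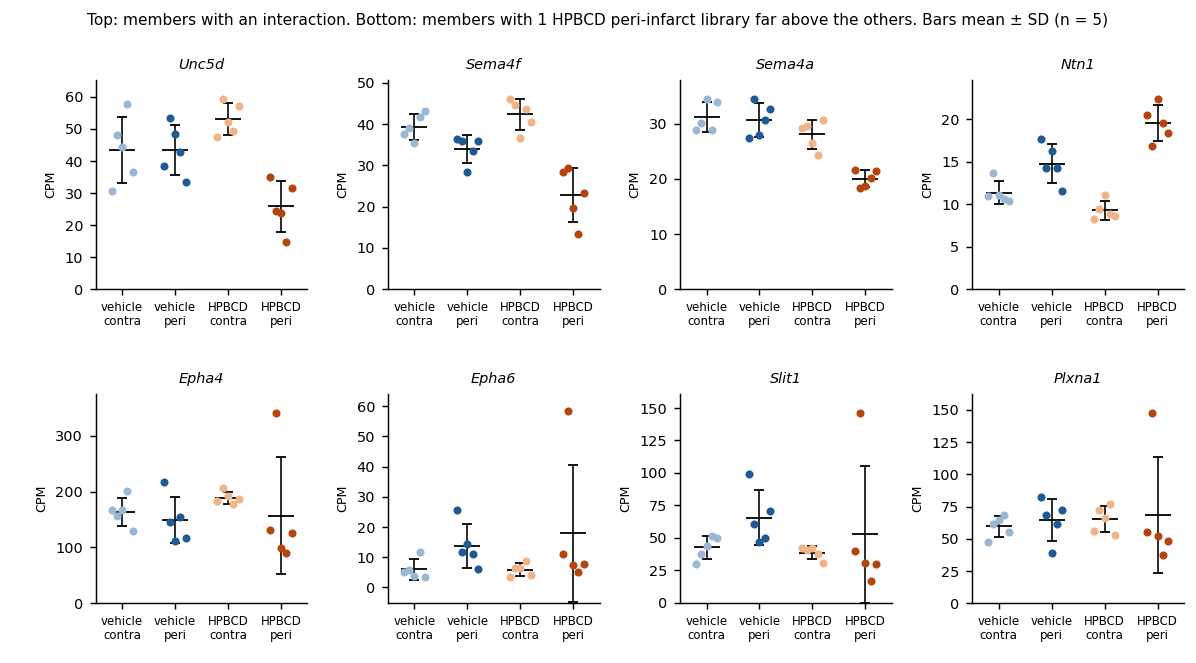
CPM per library of 4 members with an interaction (top) and of 4 members in which HPBCD peri-infarct replicate 2 stood far above its group (bottom), with mean and SD of 5 libraries. In the top row the HPBCD peri-infarct group overlaps no other group for Sema4a (18.4 to 21.5 CPM). For Unc5d, Sema4f and Ntn1 it overlaps the vehicle peri-infarct group. In the bottom row 1 point (341 CPM for Epha4, 146 CPM for Slit1) sets the mean of the HPBCD peri-infarct group.

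Treatment itself was compared within each region. In the peri-infarct region 14 of 65 tested members (21.5%) differed between the libraries labelled HPBCD and those labelled vehicle, 8 higher and 6 lower with HPBCD, against 21.4% of all genes (12.4% higher, 9.0% lower). Ligands gave 8 of 33 (5 higher, 3 lower) and receptors 6 of 32 (3 higher, 3 lower). The median log2 fold change was 0.01 for members and 0.01 for all genes. Nothing in the counts checks independently which mice received HPBCD, so every direction between treatments rests on the labels, and would turn if they were exchanged. The comparison shares its HPBCD libraries with the region comparison in HPBCD mice.

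By the labels, Sema3b and Sema3d had the largest called rises. For Sema3b, the peri-infarct libraries held 4.41 to 10.9 CPM with vehicle and 17.9 to 28.6 CPM with HPBCD (log2 fold change 1.41 ± 0.22, adjusted p = 0.0128, edgeR), and for Sema3d 6.05 to 19.5 and 22.6 to 42.1 CPM (log2 fold change 1.38 ± 0.28, adjusted p = 0.0137, edgeR), in each case with no overlap. Ephb4 (1.93-fold) and Ntn4 (1.7-fold) did not overlap either (adjusted p = 0.0177 and 0.0176, edgeR). Plxnb2 (1.53-fold), Robo1 (1.39-fold), Ntn1 (1.32-fold) and Sema6d (1.31-fold) made up the rest of the 8.

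Epha10 had the largest fall among the called members, at 33.1, 35.7, 29.8, 24.1 and 27.1 CPM with vehicle and 16.2, 20.1, 14.2, 9.33 and 19.7 CPM with HPBCD (log2 fold change -0.92 ± 0.20, adjusted p = 0.0157, edgeR), with no overlap. Sema4a, known from immune cells, was at 27.4, 34.6, 28, 30.7 and 32.8 and 21.5, 18.4, 18.7, 20.1 and 21.5 CPM, also without overlap (log2 fold change -0.62 ± 0.09, adjusted p = 0.0127, edgeR). Unc5d (-0.75 ± 0.21), Ephb6 (-0.72 ± 0.23), Sema4f (-0.57 ± 0.19) and Sema6b (-0.51 ± 0.15) were the other falls on the log2 scale (adjusted p = 0.0308, 0.0458, 0.0487 and 0.0356, edgeR).

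The count of calls in this comparison moved with single libraries. It was 4 without HPBCD peri-infarct replicate 3, 7 without vehicle replicate 2, 8 without vehicle replicate 1 or HPBCD replicate 4, 9 without vehicle replicate 4 or 5 or HPBCD replicate 5, 22 without vehicle replicate 3 and 23 without HPBCD replicate 2. The calls lost without HPBCD replicate 4 were those of Sema4f, Sema6b, Ntn1, Sema6d, Ephb6 and Plxnb2 (adjusted p of 0.0516 to 0.1). Of the 14 members, Sema3b, Sema3d, Sema4a and Epha10 kept the call in all 18 alternatives, with adjusted p up to 0.0479 (edgeR) without 1 library. The other 10 lost it in at least 1: Ephb4 and Ntn4 in 1, Plxnb2, Robo1 and Unc5d in 3, Sema6b and Ephb6 in 7, and Sema4f, Sema6d and Ntn1 in 8. Without HPBCD replicate 2, 8 members were higher and 15 lower with HPBCD, the added falls being Slit1 (-1.18), Unc5a (-0.77), Epha5 (-0.76), Efna3 (-0.74), Plxna4 (-0.53), Ephb3 (-0.52), Epha7 (-0.49), Slit3 (-0.48) and Robo2 (-0.44 on the log2 scale).

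In the contralateral region 0 of 64 members were called between treatments by edgeR, as were 0% of all genes. At an unadjusted p under 0.05 there were 9 members (14.1%; 8 of 33 ligands and 1 of 31 receptors), against 7.91% of all genes, and limma voom called 0. DESeq2 called 1, Ntn4, which stood at 13.7, 16.7, 10.7, 10.7 and 15.7 CPM with vehicle and 18, 22.3, 16.8, 22.7 and 21.4 CPM with HPBCD, with no overlap (log2 fold change 0.57 ± 0.14, adjusted p = 0.422 by edgeR). Ntn4 thus had like log2 differences between treatments in both regions, 0.57 ± 0.14 and 0.77 ± 0.17, and it was not called in the interaction (0.19 ± 0.24, adjusted p = 0.626, edgeR).

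**Figure D5:**
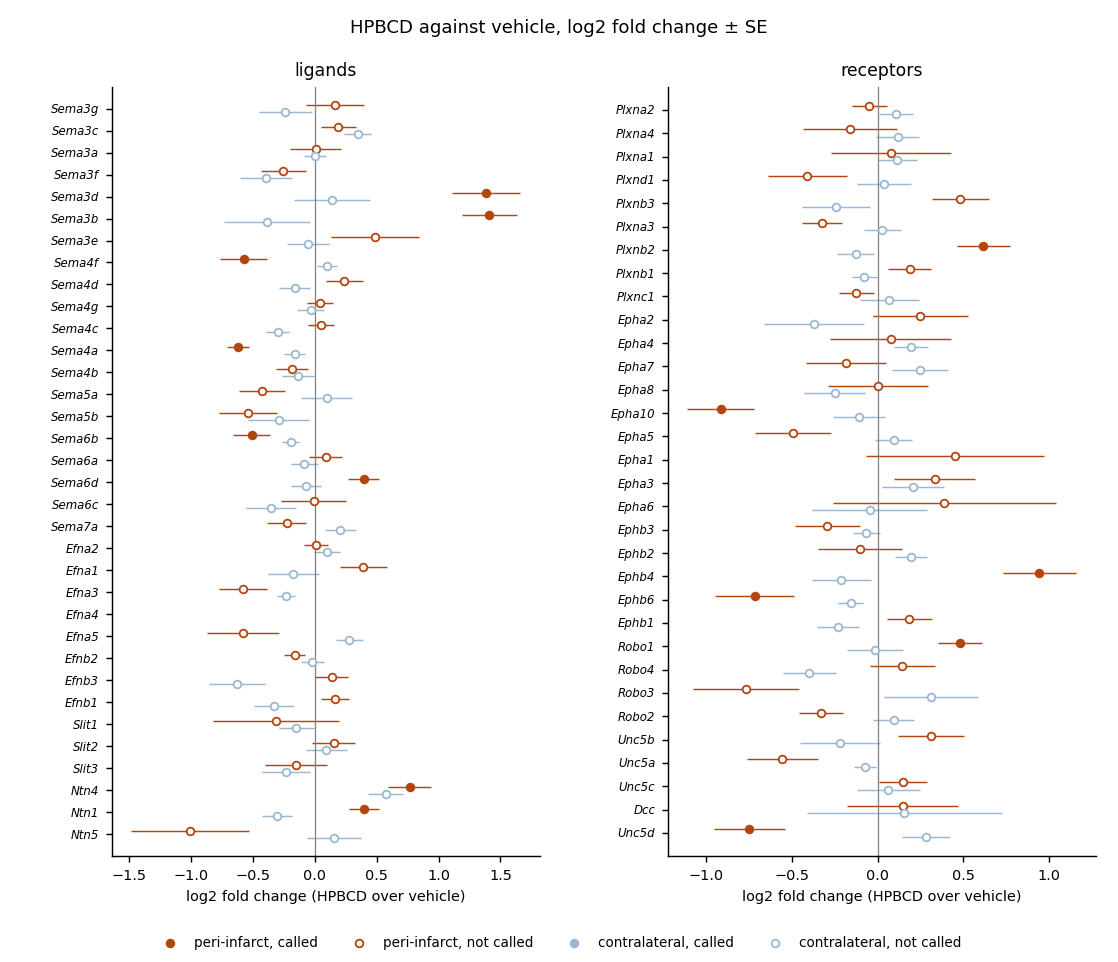
Log2 fold change of each member between HPBCD and vehicle libraries in the peri-infarct (orange) and contralateral (light blue) regions, with standard errors; filled points passed the test. Sema3b and Sema3d lie furthest to the right among peri-infarct points (1.41 and 1.38), and no contralateral point is filled.

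Genes that work with these ligands and receptors were counted from 2 lists, chosen with earlier results of these data known. Of 27 co-receptors and neighbours, all tested between regions, 8 rose and 4 fell in vehicle mice and 11 rose and 11 fell in HPBCD mice. These are 44.4% and 81.5% of the list, beside 20.2% and 54.6% of all genes. Nrp2, a neuropilin that class 3 semaphorins use beside plexins, was higher in both (log2 fold change 1.18 and 2.25, adjusted p = 0.0103 and 2.98e-07, edgeR), in the peri-infarct region with HPBCD (0.78, 0.041) and in the interaction (1.07, 0.0352). Nrp1 was also called higher in the peri-infarct region with HPBCD (log2 fold change 0.71, adjusted p = 0.0486, edgeR), and lost the call in 10 of 18 alternatives. Met, a receptor kinase that pairs with B plexins, rose in both treatments (2.14 on the log2 scale in HPBCD mice). Rtn4r, the Nogo receptor of myelin inhibition, fell in both (-0.57 and -1.54) and was lower with HPBCD around the infarct (-0.97, adjusted p = 0.0189), as was its partner Lingo1 (-0.87, adjusted p = 0.0213). Within the peri-infarct region 3 of the 27 were higher and 6 lower with HPBCD (33.3%, beside 21.4% of all genes). Leaving out 1 library gave 1 (without HPBCD replicate 3) to 15 calls (without HPBCD replicate 2), and without HPBCD replicate 4 there were 0 higher and 6 lower. The vehicle call of Rtn4r was lost in 2 of 18 alternatives (adjusted p up to 0.0553). Between treatments its call was lost in 1 and that of Lingo1 in 3 of 18. The Nrp2 call there was lost in 6 of 18 alternatives and its interaction in 8 of 27, in both cases also without HPBCD peri-infarct replicate 4.

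Of 51 effectors that act below the receptors, 12 rose and 5 fell in vehicle mice and 16 rose and 18 fell in HPBCD mice, which are 33.3% and 66.7% of the list beside 20.2% and 54.6% of all genes. Fes, a kinase that acts below plexins, and Dpysl3, a collapsin response mediator, rose in both (1.32 and 2.10, and 0.75 and 1.31 on the log2 scale). Pak1, a kinase that controls actin, fell in both (-0.46 and -1.32), and Limk1, which it activates, fell in HPBCD mice (-1.11, adjusted p = 2.43e-06, edgeR). Between treatments in the peri-infarct region 6 of the 51 were higher and 9 lower with HPBCD (29.4%, beside 21.4% of all genes), Limk1 (-0.70) and Pak1 (-0.73) among the latter. The 15 calls became 3 without HPBCD replicate 3, 6 without HPBCD replicate 4 and 29 without HPBCD replicate 2. The median log2 fold change of the effectors was 0.10 in vehicle and -0.03 in HPBCD mice.

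Markers of the cell types in the tissue were counted in the same groups. Between regions the tests called 20.2% of all genes in vehicle and 54.6% in HPBCD mice. Between treatments in the peri-infarct region they called 21.4%. All 12 neuronal markers were lower around the infarct in HPBCD mice and 7 of 12 in vehicle mice, with summed levels of 11218 to 12944 CPM in vehicle contralateral, 6927 to 9505 in vehicle peri-infarct, 12869 to 13998 in HPBCD contralateral and 3878 to 7133 in HPBCD peri-infarct libraries. Of 10 fibroblast and meningeal markers, 2 were higher around the infarct in vehicle and 10 in HPBCD mice, and 9 were higher with HPBCD in the peri-infarct region, where their sum was 867 to 1900 CPM against 225 to 631 CPM with vehicle, and 146 to 511 and 163 to 424 CPM contralaterally. Of 8 oligodendrocyte markers, 0 were called in vehicle and 8 were higher in HPBCD mice, with sums of 4545 to 11821 (vehicle contralateral), 6139 to 14835 (vehicle peri-infarct), 5581 to 7035 (HPBCD contralateral) and 12695 to 19573 CPM (HPBCD peri-infarct).

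The 10 striatal markers summed to 388.5 to 2219 CPM in vehicle and 785 to 2294 CPM in HPBCD peri-infarct libraries, and to 238 to 288 CPM in HPBCD contralateral ones. In vehicle contralateral libraries the sum was 231 to 314 CPM in 4 and 3907 CPM in replicate 1. Around the infarct 10 of 10 were called higher in HPBCD mice, and in vehicle mice 0 with all libraries and 10 without contralateral replicate 1. All 8 microglial markers were higher around the infarct in each treatment. So were all 10 markers of reactive astrocytes, which summed to 247 to 419 CPM in vehicle contralateral, 781 to 3806 in vehicle peri-infarct, 214 to 273 in HPBCD contralateral and 3302 to 6709 CPM in HPBCD peri-infarct libraries. Of the macrophage markers 4 of 8 tested were higher in vehicle and 9 of 9 in HPBCD mice, with sums of 24.1 to 46.4, 43.1 to 405.5, 22.3 to 80.4 and 304 to 843 CPM in the same order of groups. Ependymal markers gave 3 of 5 and 6 of 6 rises (4.78 to 35.5, 21.4 to 53.2, 6.24 to 11.5 and 77.3 to 150.5 CPM). Markers of pericytes and smooth muscle gave 1 and 4 of 8 (188 to 297, 195 to 262, 198 to 279 and 303 to 396 CPM). These are 12.5% and 50%, below the shares of all genes (20.2% and 54.6%). Between treatments in the peri-infarct region, where 21.4% of all genes were called, 8 of 12 neuronal markers were lower with HPBCD. For reactive astrocytes 5 of 10, for macrophages 4 of 9, for ependyma 4 of 6 and for pericytes and smooth muscle 4 of 8 were higher. Without HPBCD replicate 4 these counts were 4, 1, 3, 3 and 4, and without HPBCD replicate 3 they were 0, 0, 2, 3 and 3. Endothelial markers, by contrast, gave 0 calls of 10 in vehicle and 1 higher and 3 lower in HPBCD mice. No marker of these lists was at 0 throughout a group. Their part in the members' results was not tested.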

How the data were processed

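The authors sequenced stranded polyadenylated RNA libraries (RNA integrity above 8) as paired ends, demultiplexed them with bcl2fastq 2.19, trimmed with Trimmomatic 0.32, aligned to GRCm38 with STAR 2.5.2b, counted reads per gene with HTSeq and tested with DESeq2. The deposited values are raw counts per gene, 1 table per library. Which annotation release was used, and whether counting used strand, is not given in the sources used here, so reads of the 14 members with exon on the opposite strand of another gene cannot be told apart from that gene's.

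The 5 summary lines of each table were left out of all totals. Unassigned and ambiguous reads were most frequent in HPBCD contralateral replicate 4. Gene identifiers were matched to names for 98.16% of genes, which held 99.933% of counts. Counts were tested in R 4.3.3 with edgeR 4.0.16 (TMM factors, filterByExpr, quasi-likelihood F test, Benjamini-Hochberg adjusted p under 0.05 over all genes tested), separately for each pair of groups and over 20 libraries for the interaction. Standard errors were taken as the log2 fold change over the square root of F. CPM were scaled by TMM over all libraries. The test was checked on simulated data. No 2 tables were identical, and p-values measure the spread between libraries, which the labels do not tie to separate mice.

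The members and lists were chosen with earlier results of these data known. Any member could be given as group means or fold changes, with no further rule. Values per library are given for the largest called rise and fall of each family with a mean of at least 1 CPM. They are also given for members called in the interaction and for members whose result rests on 1 library. The last kind was chosen after its values were seen. Sema3d, outside this rule, has its HPBCD peri-infarct values printed too. From the co-receptor and effector lists up to 3 called genes per direction and comparison could be named.

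Same-numbered libraries of both regions within a treatment share an identifier in the deposited table names, read here as the mouse. The labels do not state it, so the pairing is an inference. Deviations from group means correlated at a mean r of 0.1269 over the 10 such pairs (5 over 0.1) and 0.0548 over 10 pairs that share only a number between treatments (4 over 0.1). Alternatives were DESeq2 1.42.0, limma 3.58.1 voom with quality weights, RLE and upper quartile factors, other filters, all 4 groups in 1 fit, the replicate block and leaving out each library.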

Additional observations from a re-analysis of the deposited data

Results flagged for a closer look

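Each member was examined in each of the 4 groups of 5 libraries for a library whose gap to its nearest neighbour, over the range of the group, passed the critical value of Dixon's test. This gave 26 such values in 264 groups, and chance gives about 1 in 20. HPBCD peri-infarct replicate 2 held 11 of the 26. It was high for Sema3e (105 CPM), Plxna1 (148), Epha4 (341), Epha7 (83.4), Epha6 (58.3), Ephb3 (21.2), Ephb2 (20.8), Slit1 (146) and Dcc (8.57 CPM), and low for Sema3f (4.61) and Sema4g (14.8 CPM). Sema3e ranged from 35.1 to 43.7 CPM in the other 4 libraries of that group.

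Vehicle contralateral replicate 2 was high for Sema3c (42.8 CPM), Sema3b (7.79) and Ntn1 (13.7 CPM). Vehicle contralateral replicate 4 was high for Plxna2 (129) and Epha6 (11.8) and low for Robo4 (3.97 CPM), and replicate 5 was high for Efna3 (41.9 CPM). In the vehicle peri-infarct group, replicate 1 was low for Sema4b (12.4 CPM), replicate 2 was low for Unc5c (24.7 CPM), and replicate 3 was high for Plxnb1 (150) and low for Ephb3 (12.8 CPM). In HPBCD mice, contralateral replicate 2 was high for Robo4 (5.04 CPM), contralateral replicate 3 for Plxnb2 (49.5 CPM), and replicate 4 for Efna2 in the contralateral (11.7) and the peri-infarct region (10.7 CPM).

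The difference between regions differed between treatments by the interaction test (edgeR, adjusted p in parentheses) for Sema3b (1.80, 0.022), Ephb4 (1.16, 0.0234), Plxnb2 (0.74, 0.0299), Ntn1 (0.70, 0.0207), Sema4a (-0.46, 0.0284), Sema4f (-0.68, 0.0454) and Unc5d (-1.04, 0.0261), as log2 differences.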

How the results depend on the processing

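Across the alternatives, 1375 values of called members were recomputed. Of these 1238 kept direction and call, 137 kept the direction and lost the call, and 0 changed direction. The call held in every alternative for 10 of 16 members between regions in vehicle mice, 30 of 36 in HPBCD mice, 4 of 14 between treatments in the peri-infarct region and 3 of 7 in the interaction. With limma voom 26 members were called between regions in vehicle mice, 22 between treatments in the peri-infarct region and 19 in the interaction. Calls over all genes rose too, to 5065 of 15801, 6012 of 16224 and 4110 of 16758, from 3195, 3471 and 1577 with edgeR. DESeq2 called 1 member between treatments in the contralateral region, where all other alternatives called 0. The replicate block gave 23 calls in vehicle mice, 41 in HPBCD mice and 12 in the interaction, and 17 between treatments in the peri-infarct region, where the numbers pair no libraries. Over all genes it gave 3053 of 15801, 8860 of 16047, 1830 of 16758 and 4375 of 16224 in the same order. Leaving out 1 library gave 10 to 22 calls in vehicle mice, 34 to 43 in HPBCD mice, 4 to 23 between treatments in the peri-infarct region and 3 to 17 in the interaction. Efna4 and Epha1 could pass the filter on low counts only through the group where they were high, and no call is read for them. With 5 libraries per group, members near the threshold moved across it with single libraries, and the cause was not tested.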
